A study of Mus musculus with 22 samples.

Results

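The genes described here are 46 genes of ceramide and sphingolipid metabolism, listed by name and not by their values, out of 53801 gene rows in the bulk tables. They cover 10 roles: serine palmitoyltransferase and its regulators, the later steps of ceramide synthesis, sphingomyelin synthesis, the sphingomyelinases, glycosphingolipid synthesis, glycosphingolipid degradation, the ceramidases, ceramide kinase, turnover of sphingosine 1-phosphate (S1P) and the S1P receptors. Their RNA was compared between AdipoR1-/- mice (KO), which lack adiponectin receptor 1, and wild-type mice (WT), both on the C57BL/6J strain. Bulk RNA-Seq was done on the whole retina and on retinal pigmented epithelium (RPE) cells of mice 30 days old, with 4 libraries for each genotype and tissue, each from 1 mouse. Single-cell RNA-Seq was done on retinas at 19, 25 and 30 days (P19, P25 and P30), with 1 library for each genotype and age. The labels give no treatment for these samples. The deletion was constitutive, so every cell of a KO mouse carried it from the start of development, and the line came from breeding of heterozygotes. RPE cells were detached from eyecups by shaking, and each single-cell library pooled the retinae of 2 mice.

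Ceramide is the central lipid of this pathway. It is made de novo from serine and palmitoyl-CoA, in a first step catalysed by serine palmitoyltransferase, or released from sphingomyelin and glycosphingolipids, and it is consumed by sphingomyelin synthases, glucosyltransferases, ceramide kinase and ceramidases. Ceramidases release sphingosine, which sphingosine kinases turn into S1P, a ligand of G protein-coupled receptors. AdipoR1 belongs to a receptor family for which ceramidase activity has been described, and ceramide accumulation is a known trigger of photoreceptor death, so the comparison asks whether genes of ceramide turnover changed in the retina and RPE without AdipoR1.

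The bulk libraries held 22734843 to 35118164 counts in the KO retina, 27443445 to 30443894 in the WT retina, 25218270 to 27767074 in the KO RPE and 20133143 to 38409496 in the WT RPE. The tissue labels were checked against marker lists, in CPM summed over a list. CPM are counts per 1e6 of a library total, adjusted by TMM (a scaling between libraries) within each tissue. Sums of different tissues are thus not on the same scale, and only large differences between them are read. The 7 RPE markers summed to 32090 to 49550 CPM in the WT RPE and 42010 to 44290 in the KO RPE, against 148.6 to 323.2 in the retina libraries. The 9 rod markers were present in every RPE library and uneven there: they summed to 987, 15590, 15510 and 1504 CPM in WT libraries 1 to 4, and to 652, 3778, 5385 and 1031 in KO libraries 1 to 4. In the retina they summed to 59110 to 65090 CPM in WT and 30770 to 35150 in KO, with 8 of 9 lower. The 11 markers of microglia and macrophages were all higher in the KO retina, where they summed to 196 to 236 CPM against 48.4 to 52.4. The 7 Müller glia markers summed to 5631 to 6046 against 4348 to 4723, the 6 astrocyte markers to 246 to 308 against 56.2 to 69.4, and the 7 endothelial markers to 445 to 470.1 against 273 to 326. Taken singly, 5 Müller glia markers were called higher and 1 lower, and 3 astrocyte and 2 endothelial markers higher. The 7 pericyte and mural markers summed to less in KO, 670.6 to 710.7 CPM against 853.5 to 958.4, with 1 called higher and 1 lower. No list had a marker at 0 in all libraries.

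The regions upstream of the members whose RNA is followed below library by library were read from RefSeq (build GRCm38.p6), as the 250 bases before and 50 bases after each annotated start. Of the 46 members, 42 had such a region. The GC box bound by Sp1-type factors, GGGCGG on either strand, was found in 36 of the 42 (85.7%), against 65.1% of the 12402 genes tested in the retina that had a region. The E-box CACGTG was found in 9 (21.4%), against 11%, and the TATA box TATAAA on either strand in 2 (4.76%), against 9.3%. A match describes the letters and is no binding site. The 5 regions shown are those of the 4 members that passed with a change of at least 1.5-fold in the retina and of the member whose genotype effect differed most between the tissues, and the capitals mark the GC box, of which each holds 1. They lie at chr8:4493155-4493454 on the plus strand for the ceramide synthase gene Cers4, chr1:53296845-53297144 (plus) for Ormdl1, chr9:20976744-20977043 (minus) for S1pr2, chr13:51408368-51408667 (plus) for S1pr3 and chr3:69859845-69860144 (minus) for Sptssb. Their GC content was 64.3%, 65.7%, 62.0%, 59.0% and 52.7% in that order.
Cers4: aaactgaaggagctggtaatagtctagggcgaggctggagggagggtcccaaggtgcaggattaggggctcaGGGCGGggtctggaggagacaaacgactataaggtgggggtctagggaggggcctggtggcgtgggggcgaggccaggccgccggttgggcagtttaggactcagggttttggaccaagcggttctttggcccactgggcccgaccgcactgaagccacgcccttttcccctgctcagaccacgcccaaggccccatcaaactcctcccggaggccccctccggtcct
Ormdl1: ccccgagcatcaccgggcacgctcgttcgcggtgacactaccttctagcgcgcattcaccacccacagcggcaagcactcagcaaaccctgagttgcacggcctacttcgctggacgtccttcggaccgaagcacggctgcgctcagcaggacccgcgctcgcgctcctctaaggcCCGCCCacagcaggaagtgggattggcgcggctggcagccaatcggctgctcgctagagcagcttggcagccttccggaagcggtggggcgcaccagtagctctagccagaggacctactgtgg
S1pr2: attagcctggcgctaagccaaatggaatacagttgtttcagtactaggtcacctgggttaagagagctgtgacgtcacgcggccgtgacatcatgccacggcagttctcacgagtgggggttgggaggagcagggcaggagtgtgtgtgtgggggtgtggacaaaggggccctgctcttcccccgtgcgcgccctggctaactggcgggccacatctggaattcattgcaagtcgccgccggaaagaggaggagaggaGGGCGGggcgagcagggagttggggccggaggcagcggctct
S1pr3: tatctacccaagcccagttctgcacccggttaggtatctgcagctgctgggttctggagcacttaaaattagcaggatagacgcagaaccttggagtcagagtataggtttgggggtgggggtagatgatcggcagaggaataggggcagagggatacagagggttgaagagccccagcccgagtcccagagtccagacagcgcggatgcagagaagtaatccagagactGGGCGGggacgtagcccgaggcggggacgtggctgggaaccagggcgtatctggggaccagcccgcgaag
Sptssb: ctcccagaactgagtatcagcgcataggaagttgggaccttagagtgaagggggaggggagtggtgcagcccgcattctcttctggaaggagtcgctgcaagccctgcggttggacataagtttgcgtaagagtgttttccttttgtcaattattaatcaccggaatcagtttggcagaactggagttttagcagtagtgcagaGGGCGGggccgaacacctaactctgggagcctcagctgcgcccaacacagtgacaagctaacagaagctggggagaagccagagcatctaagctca

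The targeted gene was checked first. Adipor1 (ENSMUSG00000026457) had 605, 601, 589 and 607 CPM in the 4 WT retina libraries and 142, 138, 136 and 138 in the 4 KO libraries. In the RPE it had 379, 404, 479 and 374 CPM in WT and 142, 148, 152 and 139 in KO. In both tissues every KO library was below every WT library, and the log2 fold change was -2.12 ± 0.039 (SE, adjusted p = 4.61e-13) in the retina and -1.49 ± 0.091 (adjusted p = 2.07e-04) in the RPE. Counts that remained in KO libraries were not split by exon here.

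In the KO retina, S1P receptor genes S1pr2 and S1pr3 rose, while the ceramide synthase gene Cers4 and the serine palmitoyltransferase regulator Ormdl1 fell, and these 4 were the members that both passed the test and changed by at least 1.5-fold. All 46 members were tested, and 23 passed at an adjusted p below 0.05 (edgeR quasi-likelihood test, Benjamini-Hochberg over all genes tested), 10 of them higher and 13 lower in KO. Of the 19381 genes tested, 30.9% passed, 16.2% higher and 14.7% lower. With a change of at least 1.5-fold (DEGs) it was 10.0%, 7.0% higher and 3.04% lower, against 4 of the 46 members, 2 each way. The log2 fold changes of the members that passed ran from 0.157 to 0.873 among those higher and from -0.615 to -0.136 among those lower. The median over the 46 was 0.038, beside 0.0036 over all genes. With scaling by library totals and no TMM, the median over all genes moved to 0.114 and 27 members passed, 20 higher and 7 lower. Of the 19381 genes, 7340 passed on that scaling, 5855 higher and 1485 lower. The 23 kept their direction, but Sptssa, Degs1, Smpd1, Smpd2, St8sia1 and S1pr1 then no longer passed. Cers4 (-0.50) and Ormdl1 (-0.48) still passed on that scaling, at less than a 1.5-fold fall. The rod, glia and microglia marker sums above moved with genotype in this same comparison, and their part in these values was not tested. In bulk tissue, fewer cells of a type and less RNA per cell cannot be told apart.

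**Figure D1:**
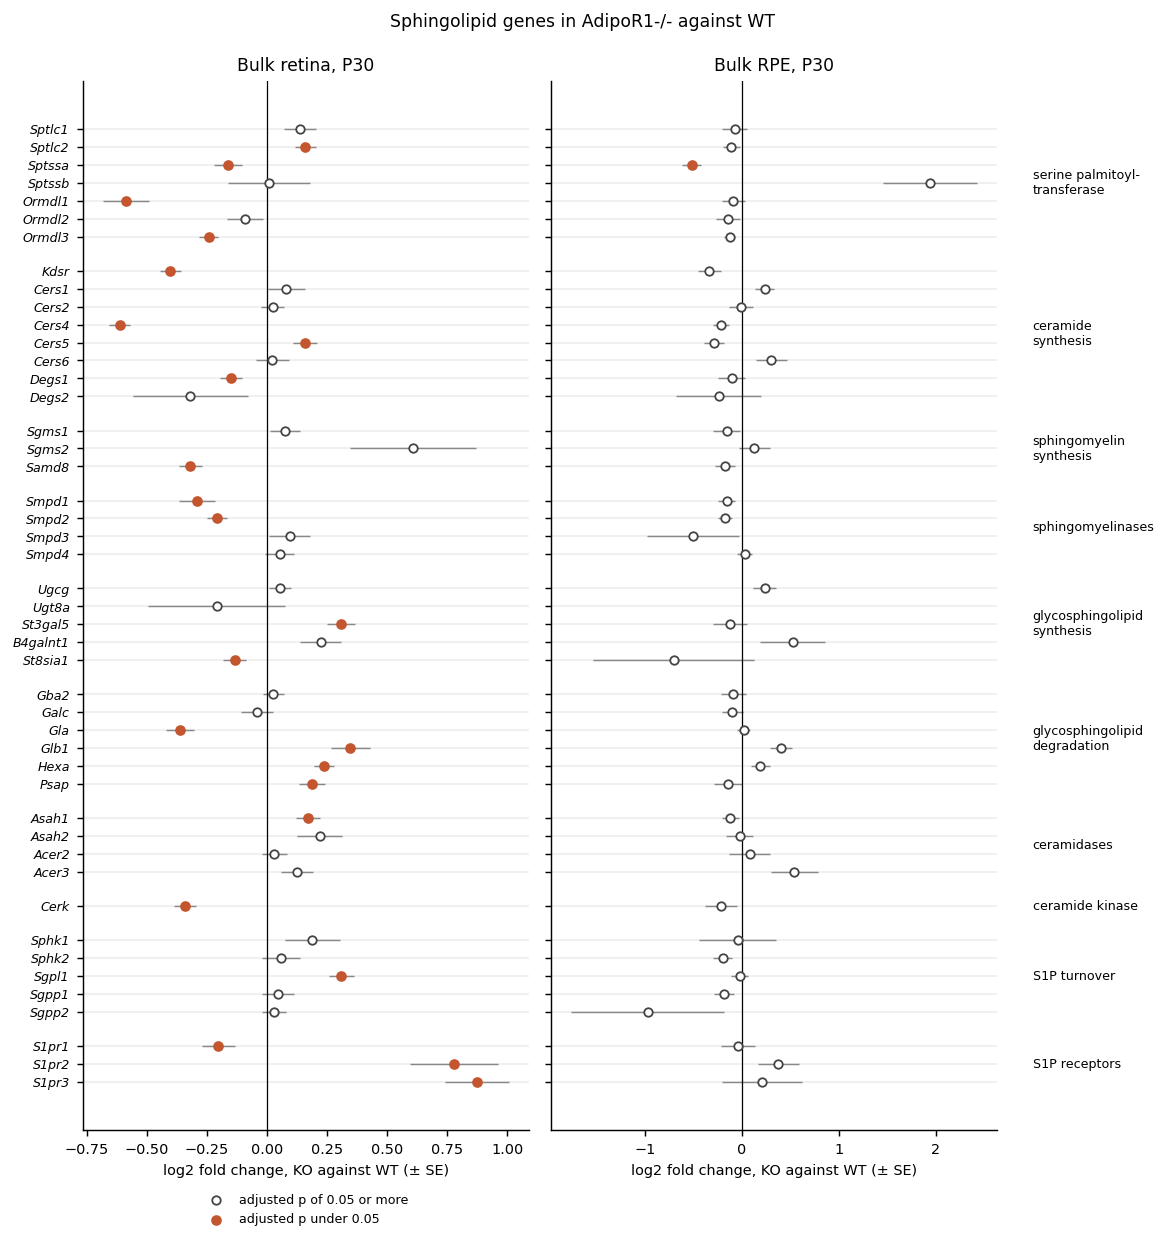
Log2 fold change of KO against WT for the members, ordered by role, in the retina and in the RPE (n = 4 libraries per group), with bars of ± SE; filled points passed at an adjusted p below 0.05. The 23 filled points in the retina lie on both sides of 0, and the RPE has 1, Sptssa.

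Serine palmitoyltransferase catalyses the first and rate-limiting step of de novo synthesis. Its catalytic subunits are Sptlc1 and Sptlc2, its small activating subunits are Sptssa and Sptssb, and the Ormdl proteins restrain it. Of these 7 genes, Sptlc2 rose, Sptssa, Ormdl1 and Ormdl3 fell, and Sptlc1, Sptssb and Ormdl2 did not pass. Ormdl1 (ENSMUSG00000026097) had 21.4, 20.8, 19.0 and 25.2 CPM in WT retina and 15.7, 15.2, 14.1 and 12.2 in KO. Each KO library was below each WT library, and the log2 fold change was -0.59 ± 0.096 (adjusted p = 3.89e-04). Ormdl1 shares 8.72% of its exonic bases with Gm28778 on the same strand, so some of its counts could belong to that gene. Cers1 shares 42.5% with Gdf1, also on the same strand. On the opposite strand, Ormdl2 shares 66.7% with Dnajc14, B4galnt1 20.7% with Slc26a10, Sphk2 13% with Dbp, Hexa 12.8% with Tmem202, Degs2 10.8% with Evl and Cers4 7.22% with Vmn2r-ps89, and reads of these pairs cannot be told apart if counting did not use strand. Ormdl3 fell by 0.24 on the log2 scale (adjusted p = 3.68e-04).

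The catalytic subunits, the targets of the inhibitor L-cycloserine, moved little. Sptlc2 (ENSMUSG00000021036) had 49.1, 47.9, 51.0 and 48.0 CPM in WT retina and 54.3, 56.5, 54.0 and 54.1 in KO. The groups did not overlap, and the log2 fold change was 0.16 ± 0.044 (adjusted p = 0.014). Sptlc1 (ENSMUSG00000021468) had 27.4, 26.1, 31.0 and 27.9 CPM in WT and 30.4, 32.4, 31.9 and 28.6 in KO. These groups overlapped, and the log2 fold change of 0.14 ± 0.066 did not pass (adjusted p = 0.135). Sptssa (ENSMUSG00000044408) had 36.0, 39.0, 34.6 and 37.7 CPM in WT and 30.7, 33.3, 33.9 and 33.8 in KO. The KO libraries were all lower, by 0.16 ± 0.057 on the log2 scale (log2 fold change -0.16, adjusted p = 0.046). Sptssb (ENSMUSG00000043461) was at 3.33, 4.44, 4.18 and 3.77 CPM in WT and 2.67, 4.85, 4.33 and 3.99 in KO, with KO values both below and above those of WT.

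**Figure D2:**
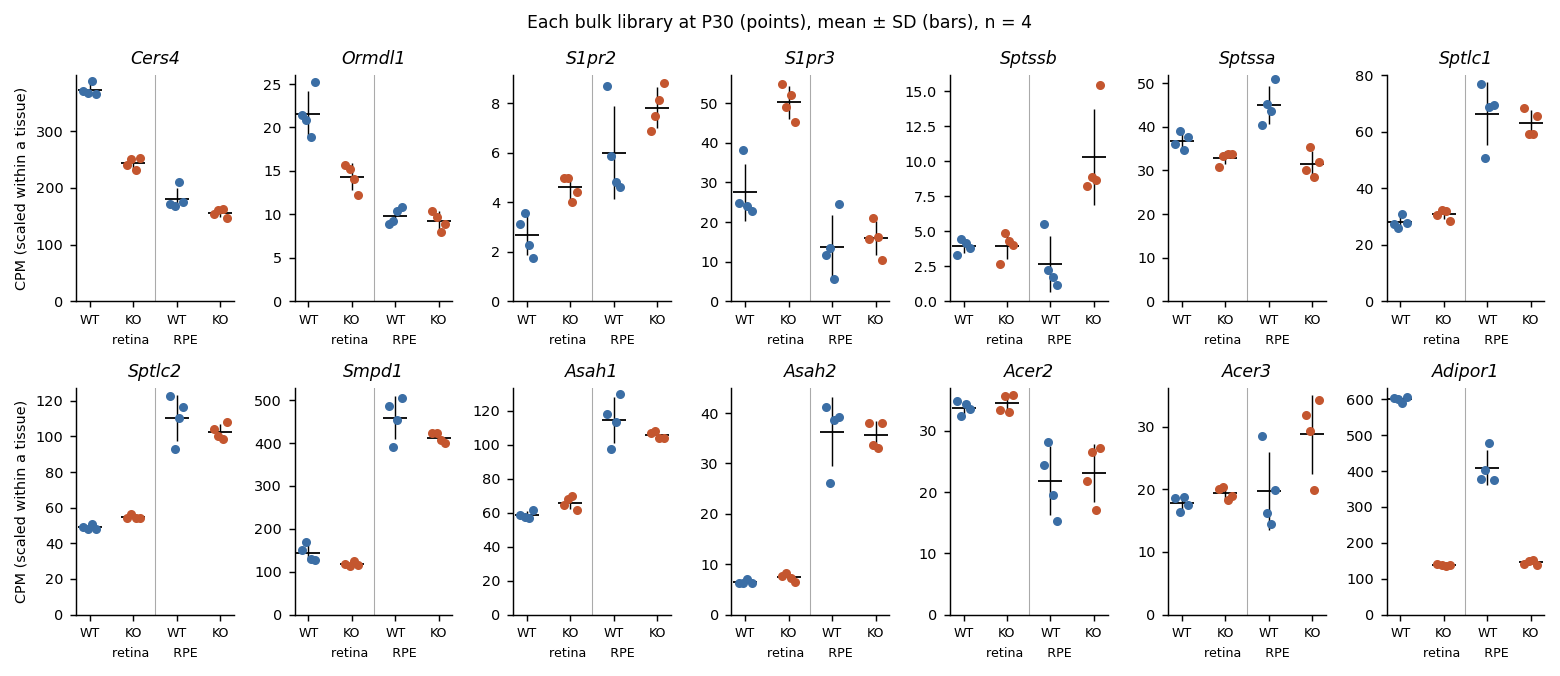
CPM in every bulk library for 13 members and Adipor1, with the mean ± SD of the 4 libraries of each group; CPM is scaled within a tissue, so levels are compared between genotypes and not between tissues. In the retina, the KO points of Cers4, Ormdl1, S1pr2, S1pr3, Sptssa, Sptlc2, Smpd1 and Adipor1 do not overlap the WT points. In the RPE, those of Sptssa, Sptssb, Cers4 and Adipor1 do not.

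Among the 8 genes of the later steps of ceramide synthesis, Kdsr, Cers4 and Degs1 fell, Cers5 rose, and Cers1, Cers2, Cers6 and Degs2 did not pass, at log2 fold changes from -0.32 to 0.08. The Cers genes encode ceramide synthases, which attach a fatty acid to the sphingoid base and differ in the chain length they use. Cers4 (ENSMUSG00000008206) had 371, 368, 388 and 365 CPM in WT retina and 240.35, 250.1, 231 and 252 in KO. All KO libraries were well below all WT libraries, and the log2 fold change was -0.61 ± 0.042 (adjusted p = 1.44e-07). Kdsr, which encodes the reductase that follows serine palmitoyltransferase, fell by 0.40 ± 0.043 on the log2 scale (adjusted p = 8.74e-06). Degs1, the desaturase that completes ceramide, fell by 0.15 (adjusted p = 0.0261). Cers5, a synthase that uses palmitoyl-CoA, had 52.3, 54.4, 52.0 and 50.2 CPM in WT and 57.8, 62.6, 58.25 and 54.2 in KO. Its highest WT value lay just above its lowest KO value, and the log2 fold change was 0.16 ± 0.051 (adjusted p = 0.0327).

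Ceramide is passed to and from sphingomyelin by synthases and sphingomyelinases. Samd8, which encodes a ceramide phosphoethanolamine synthase, fell by 0.32 (log2, adjusted p = 2.22e-04), while Sgms1 and Sgms2, the sphingomyelin synthase genes, did not pass. The lysosomal acid sphingomyelinase gene Smpd1 (ENSMUSG00000037049), whose product desipramine inhibits indirectly, had 149.7, 168, 131 and 128 CPM in WT retina and 119, 113, 125 and 115 in KO. The KO libraries were all below the WT libraries, with a log2 fold change of -0.29 ± 0.074 (adjusted p = 0.00862). Smpd2 also fell, by 0.21 (adjusted p = 0.00199), and Smpd3 and Smpd4 did not pass. Smpd2 shares 20.3% of its exonic bases with Mical1 on the opposite strand.

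Glycosphingolipid genes moved both ways. Of the 5 synthesis genes, St3gal5, which makes the ganglioside GM3, rose by 0.31 ± 0.060 on the log2 scale (adjusted p = 0.00157), St8sia1 fell by 0.14 (adjusted p = 0.041), and Ugcg, Ugt8a and B4galnt1 did not pass. Of the 6 degradation genes, 3 rose: Glb1, the lysosomal beta-galactosidase, by 0.35 (adjusted p = 0.00565), Hexa, a subunit of beta-hexosaminidase, by 0.24 (adjusted p = 9.76e-04), and Psap, the precursor of the saposin activators, by 0.19 (adjusted p = 0.0183). Gla, which encodes alpha-galactosidase A, had 24.1, 25.5, 24.6 and 25.9 CPM in WT retina and 19.2, 18.8, 20.6 and 19.2 in KO. Its KO libraries were all below its WT libraries, and the log2 fold change was -0.36 ± 0.057 (adjusted p = 2.74e-04). Galc and Gba2 did not pass.

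The ceramidases, which hydrolyse ceramide to sphingosine, changed little. Of the 4, acid ceramidase Asah1 passed, and the neutral and alkaline enzymes did not. Asah1 (ENSMUSG00000031591) had 58.8, 57.2, 56.8 and 61.7 CPM in WT retina and 64.4, 68.1, 69.7 and 61.4 in KO. The groups overlapped by 1 library each, and the log2 fold change was 0.17 ± 0.050 (adjusted p = 0.0206). The neutral ceramidase gene Asah2 (ENSMUSG00000024887) had 6.22, 6.20, 6.97 and 6.34 CPM in WT and 7.75, 8.33, 7.28 and 6.52 in KO, with an adjusted p of 0.0973. The alkaline ceramidase gene Acer2 (ENSMUSG00000038007) had 34.8, 32.5, 34.4 and 33.5 CPM in WT and 33.4, 35.8, 33.1 and 35.8 in KO, with an adjusted p of 0.715. Acer3 (ENSMUSG00000030760), the other alkaline ceramidase gene, had 18.6, 16.4, 18.8 and 17.4 CPM in WT and 20.1, 20.4, 18.3 and 18.9 in KO, with an adjusted p of 0.174. The genotypes overlapped for each of these 3 genes. Cerk, which phosphorylates ceramide, fell by 0.34 ± 0.048 (log2, adjusted p = 1.03e-04).

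S1P is degraded by the lyase Sgpl1, which rose by 0.31 ± 0.051 on the log2 scale (adjusted p = 4.5e-04), while the kinases Sphk1 and Sphk2 and the phosphatases Sgpp1 and Sgpp2 did not pass. All 3 receptor genes passed. S1pr3 (ENSMUSG00000067586) had 24.8, 38.1, 24.2 and 22.8 CPM in WT retina and 54.8, 49.0, 52.1 and 45.2 in KO. The lowest KO library was above the highest WT library, which itself stood apart from the other WT libraries, and the log2 fold change was 0.87 ± 0.133 (adjusted p = 2.24e-04). In a fit of both tissues together, the adjusted p of S1pr3 was 0.0913. S1pr2 (ENSMUSG00000043895), at a lower level, had 3.13, 3.56, 2.26 and 1.76 CPM in WT and 4.97, 4.97, 4.03 and 4.42 in KO. Its groups did not overlap, with a log2 fold change of 0.78 ± 0.184 (adjusted p = 0.0056). S1pr1 fell by 0.20 ± 0.068 (adjusted p = 0.0369). Of the 23 calls in the retina, 16 held with each library left out in turn. The other 7 were each lost in at least 1 fit, and their highest adjusted p was 0.144 for Sptssa without KO library 1, 0.136 for St8sia1 and 0.101 for Cers5 without KO library 2, 0.0943 for S1pr1 without WT library 2, 0.0726 for Asah1 without KO library 3, 0.0711 for Degs1 without KO library 1 and 0.0691 for Psap without WT library 1.

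In the RPE, Sptssa was the member that fell, and no member passed with a change of at least 1.5-fold. Of the 45 members tested, 1 passed (edgeR quasi-likelihood test), against 6.73% of the 18989 genes tested (2.84% higher and 3.89% lower). An unadjusted p below 0.05 was found for 8 of the 45, beside 3863 of the 18989. The DEGs were 4.97% of all genes, 2.02% higher and 2.95% lower. The median log2 fold change over the members was -0.096, beside -0.0185 over all genes. Sptssa had 40.4, 45.2, 43.6 and 50.9 CPM in WT RPE and 30.0, 35.4, 28.5 and 31.9 in KO. All KO libraries were below all WT libraries, with a log2 fold change of -0.52 ± 0.094 (adjusted p = 0.0162), and of -0.517 (adjusted p = 0.0152) with the rod marker level as a covariate. The adjusted p was 0.0594 without KO RPE library 1, and the call was also lost without KO RPE library 4.

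Sptssb, the alternative small subunit of the same enzyme, had 5.55, 2.22, 1.70 and 1.15 CPM in WT RPE and 8.24, 8.85, 8.66 and 15.5 in KO. Every KO library was above every WT library, while the spread within each group was wide, and the log2 fold change of 1.94 ± 0.485 did not pass (adjusted p = 0.0549). It passed with the rod marker level as a covariate (1.74, adjusted p = 0.0367) and without WT RPE library 1 (2.58, adjusted p = 0.00603), and stood at an adjusted p of 0.151 without KO RPE library 4. The DESeq2 Wald test gave it an adjusted p of 7.98e-04. With the rod covariate, Glb1 (log2 0.34, adjusted p = 0.0362), Kdsr (log2 -0.39, adjusted p = 0.0483) and Cers5 (log2 -0.35, adjusted p = 0.022) passed too.

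None of the other members passed in the RPE. Cers4 had 172, 169, 209 and 174 CPM in WT RPE and 153, 161, 162 and 146 in KO. Its KO libraries were all lower, yet the log2 fold change of -0.22 ± 0.081 had an adjusted p of 0.18. Ormdl1 had 8.92, 9.18, 10.4 and 10.9 CPM in WT and 10.4, 9.75, 7.94 and 8.89 in KO, S1pr2 had 8.70, 5.88, 4.83 and 4.61 in WT and 6.86, 7.48, 8.13 and 8.81 in KO, and the genotypes overlapped for both. S1pr3 had 11.6, 13.4, 5.66 and 24.5 CPM in WT and 15.8, 21.1, 16.2 and 10.5 in KO, and WT library 4 was above all KO libraries while WT library 3 was below them. S1pr2 passed without WT RPE library 1 (adjusted p = 0.0394).

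Glb1 had 88.6, 64.5, 75.3 and 93.1 CPM in WT RPE and 106.8, 102.85, 108.5 and 107.9 in KO. Its KO libraries were all above its WT libraries, and the log2 fold change of 0.41 ± 0.111 did not pass (adjusted p = 0.0742). The catalytic subunits, Smpd1 and the ceramidases overlapped between genotypes in the RPE. Sptlc1 had 77.1, 50.5, 68.6 and 69.5 CPM in WT RPE and 68.3, 59.2, 59.1 and 65.7 in KO, and Sptlc2 had 123, 92.7, 110.2 and 117 in WT and 104, 100.3, 98.5 and 108 in KO. Smpd1 had 486, 391, 453 and 505 CPM in WT and 423, 423, 406 and 399 in KO. Acid ceramidase Asah1 had 118, 97.2, 113 and 129.8 CPM in WT and 107, 108, 104 and 104 in KO. WT library 2 was the lowest WT value for each of these 4 genes. That library also had the lowest RPE marker sum, 32090 CPM, against 49480, 45860 and 49550 in WT libraries 1, 3 and 4. Without it, 6 of 45 members passed, 1 higher and 5 lower, beside 1585 of 19108 genes (561 higher, 1024 lower). The adjusted p in that fit (edgeR) was 0.24 for Sptlc1, 0.111 for Sptlc2, 0.0515 for Smpd1 and 0.093 for Asah1. Asah2 had 41.3, 26.1, 38.6 and 39.15 CPM in WT and 38.1, 33.6, 33.0 and 38.1 in KO. Acer2 had 24.5, 28.2, 19.5 and 15.3 in WT and 21.9, 26.5, 17.0 and 27.2 in KO, and Acer3 had 28.6, 16.2, 14.5 and 19.9 in WT and 31.9, 29.3, 19.8 and 34.3 in KO. The adjusted p of the 4 ceramidases was 0.485 for Asah1, 0.946 for Asah2, 0.859 for Acer2 and 0.266 for Acer3. The microglia and macrophage markers rose in the RPE too, with 9 of 11 higher in KO and sums of 739 to 825 CPM against 392 to 641. Of the 6 lens markers, 2 were lower in KO, with sums of 6.85 to 24.6 CPM against 14.5 to 875, and 2 of the 7 RPE markers were lower. The red blood cell markers summed to 800.1 to 2250 CPM in KO against 2080 to 3640 in WT. The part of these markers in the values was not tested.

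Whether the genotype effect differed between tissues was tested as an interaction, which 4 of the 46 members passed, against 8.84% of the 21068 genes tested. Of the 4, 3 had a higher effect in the RPE, as 3.11% of all genes did, and 1 a lower one, as 5.73% did. Sptssb differed most, by 1.95 ± 0.526 (log2, RPE minus retina, adjusted p = 0.0317). Its KO libraries were above WT in the RPE and among WT in the retina. The fall of Cers4 in the retina was 0.41 ± 0.110 smaller in the RPE (adjusted p = 0.0292). Cers5 differed by -0.42 ± 0.114 (adjusted p = 0.0316), and in the RPE had 124, 92.3, 113 and 130.1 CPM in WT and 96.8, 92.7, 90.5 and 97.4 in KO. Gla differed by 0.40 ± 0.081 (adjusted p = 0.0058), with 24.7, 23.0, 25.0 and 26.4 CPM in WT RPE and 23.9, 24.1, 25.7 and 26.6 in KO. The Gla call held with each of the 16 libraries left out in turn. Sptssb and Cers4 each passed in 7 of those 16 fits and Cers5 in 4, with adjusted p up to 0.0702, 0.0627 and 0.0688. The labels do not give the replicate numbers as a pairing. With the replicate block as an alternative, the adjusted p was 0.0635 for Sptssb and Cers5, 0.0342 for Cers4 and 0.00581 for Gla. Sptssa passed as well in that fit (log2 -0.34, adjusted p = 0.0379). The differences for S1pr2 (adjusted p = 0.503), S1pr3 (0.455) and Ormdl1 (0.0635) did not pass, so a tissue difference in their effects was not shown.

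The members' levels also differed between the WT tissues. Between WT RPE and WT retina, 39 of 46 members passed, against 81.9% of the 20009 genes tested (41.4% higher and 40.4% lower), with 28 higher in the RPE (log2 0.298 to 5.75) and 11 lower (-3.05 to -0.496). With scaling by library totals the median over all genes was -0.258, beside 0.003 with TMM, and then 24 members were higher and 14 lower. Of the 20009 genes, 7033 then passed as higher and 9760 as lower. On the RPKM scale, which divides CPM by the length of a gene in kilobases and so allows genes to be compared, Psap led both tissues, at 212.8 ± 11.4 (SD, n = 4) in WT retina and 2317 ± 363 in WT RPE. In WT retina it was followed by Ormdl3 (64.2 ± 2.69), Smpd1 (38.7 ± 4.99) and Cerk (38.0 ± 2.31), of which Smpd1 and Cerk did not differ beyond their spread, and then by Cers4 (27.2 ± 0.66). In WT RPE Degs1 (272 ± 47.4) and Smpd1 (153 ± 15.3) came next, before Hexa (101.5 ± 11.8) and Ormdl3 (93.2 ± 7.21), whose values lay within their spread of each other.

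Among the 4 ceramidase genes of the list, which does not hold Adipor1 (107 ± 1.82 RPKM in WT retina and 90.7 ± 13.7 in WT RPE), Asah1 was highest per length in both tissues, at 15.5 ± 0.648 RPKM in WT retina and 37.5 ± 4.09 in WT RPE. In WT retina it was followed by Acer2 (4.23 ± 0.125), Acer3 (1.04 ± 0.0655) and Asah2 (0.495 ± 0.0268). In WT RPE Asah2 (3.46 ± 0.651) and Acer2 (3.39 ± 0.867) lay within their spread of each other, above Acer3 (1.43 ± 0.42). Sgms2 was the member highest in RPE relative to retina (log2 5.75), ahead of Degs1 (3.86), and St8sia1 was the lowest (-3.05). Cers4 and Ormdl1 were both lower in RPE, by 0.73 and 0.82 (log2 -0.73 and -0.82). The WT RPE libraries also held 513 to 1902 CPM of 5 fibroblast markers and 2080 to 3640 of 4 red blood cell markers, against 7.52 to 11.8 and 65.3 to 156 in WT retina, and their part in the RPE levels was not tested.

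**Figure D3:**
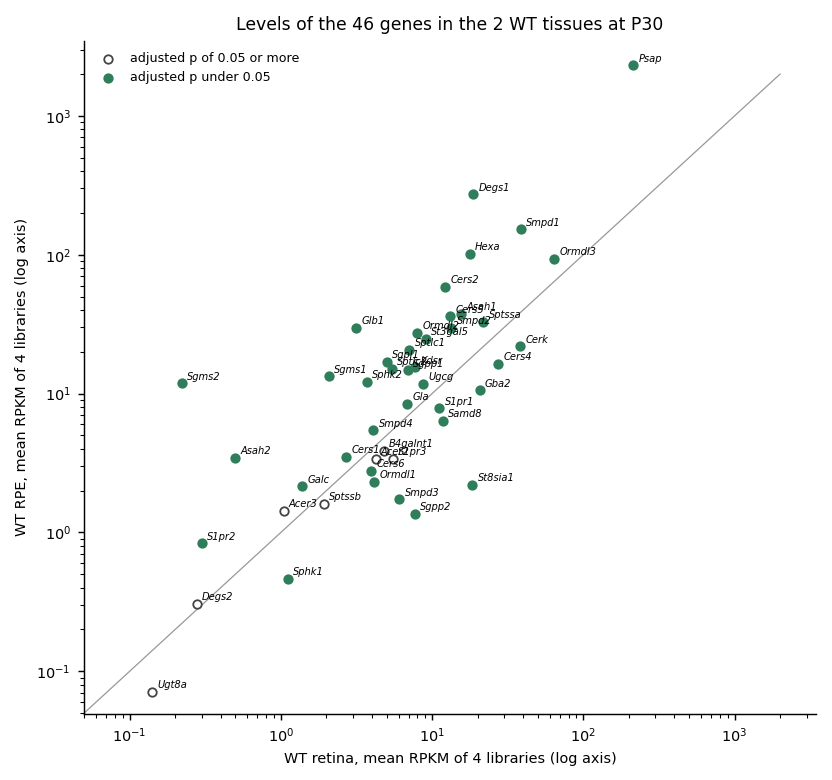
Mean RPKM of the members in WT RPE against WT retina (n = 4 libraries each, log axes), with filled points for members that passed the test of WT RPE against WT retina. Psap lies highest in both, and Sgms2 and Degs1 lie farthest above the line of equal levels.

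In the single-cell data, 26764 cells from 6 libraries were analysed, with a median of 1349 to 4357 UMIs (unique molecular identifiers, 1 per RNA molecule captured) per cell, and 49 barcodes occurred in 2 or more libraries. P30 libraries were shallower and came from another sequencing run, so age and run cannot be told apart. Cells were clustered without the members and named by markers. Rod-like cells (8029) lay mostly in clusters 1 and 2, largely KO, and in 3 and 6, largely WT, so that genotype and cluster went together. Cluster 1 was led by Lrrc2 and Fgf2, and cluster 2 by Edn2, genes known from stressed photoreceptors. C1qa, a complement gene of microglia, was at 7758 CPM in WT microglia-like cells and at 2.70 in WT rod-like cells, which should lack it.

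With UMIs summed over the 3 WT libraries, Cers4 was the leading member in rod-like cells, at 376 CPM (357 to 395, exact Poisson 95% interval, which covers counting error only), ahead of Ormdl3 (181) and Sptssa (153). This order did not hold at each age: Cers4 led at P19 (569) and P25 (520.2), while at P30 Sptssa (232) was above Ormdl3 (152), Cers4 (149) and Psap (148). In cone-like cells Sptssa led (549), before Cers4 (317) and Ormdl3 (289). Psap, the saposin precursor, led in Müller glia-like cells (368), amacrine-like cells (290.1), other bipolar-like cells (208), rod bipolar-like cells (281), retinal ganglion-like cells (537), horizontal-like cells (569) and microglia-like cells (1584). S1pr1 (463) led in endothelial-like cells, S1pr3 was at 173 CPM in Müller glia-like cells, 55.0 in endothelial-like cells and 0.0 in rod-like cells, and Sptssb was at 37.0 in Müller glia-like cells. Of the lysosomal genes, Hexa was at 501 and Asah1 at 470.2 CPM in microglia-like cells (49 and 46 UMIs), against 38.3 for Asah1 in rod-like cells. The members together made up 3690 CPM of microglia-like and 4308 CPM of RPE-like WT cells, against 1833 of rod-like cells. Those microglia-like and RPE-like sums rest on only 29 and 41 WT cells, with 361 and 532 UMIs of members. Psap alone was at 1584 CPM in the former and 1612 in the latter. These are levels per total UMIs and not per length, and no test was run between classes.

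**Figure D4:**
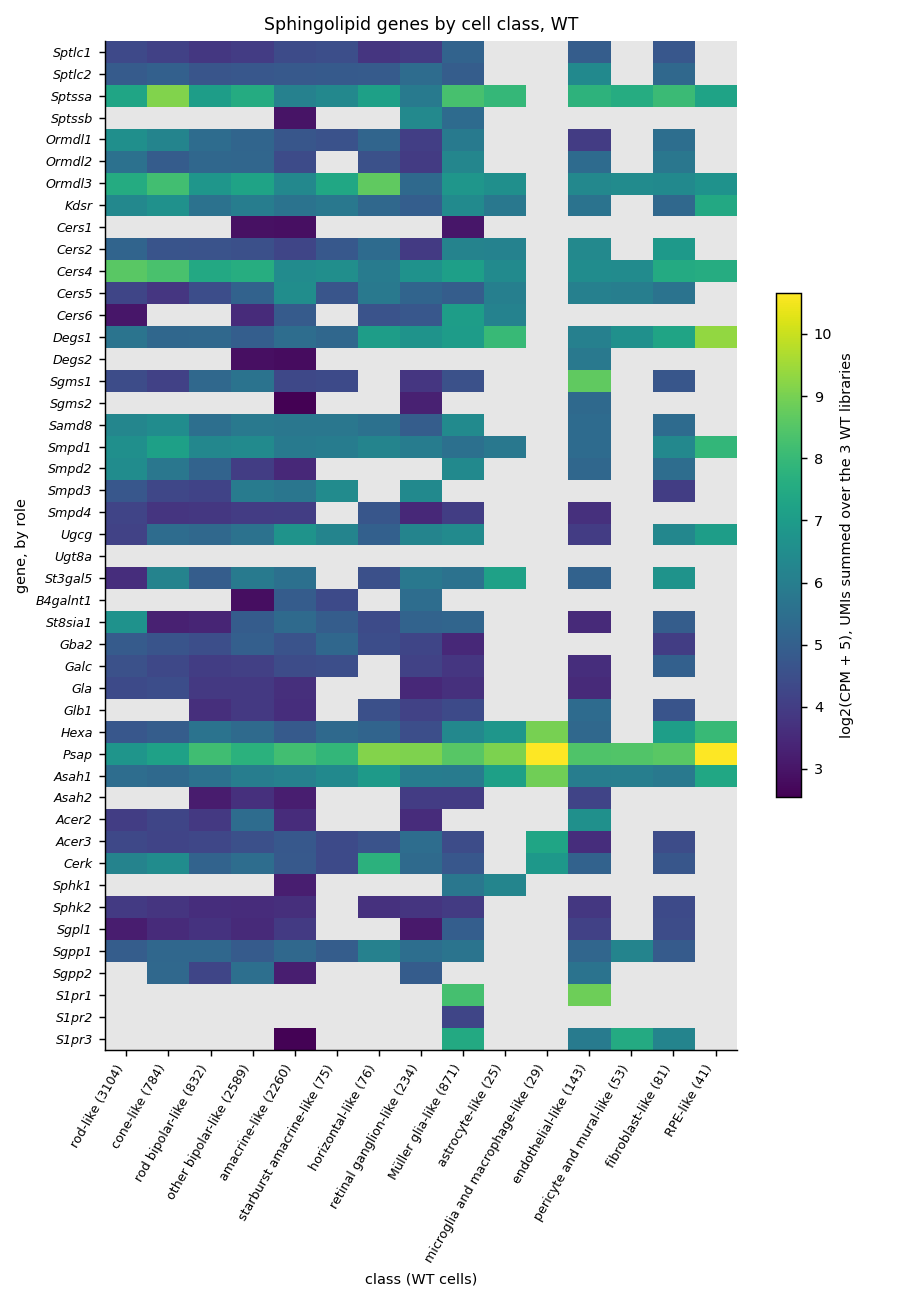
Level of the members as log2(CPM + 5) in WT cells of 15 cell classes, with UMIs summed over the 3 WT libraries and the number of cells beside each class; grey cells hold under 10 UMIs. Psap is high in most classes, Cers4 is highest in rod-like and cone-like cells, and S1pr3 is high in pericyte-like and Müller glia-like cells.

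Rod-like cells were compared between genotypes over the 3 ages with limma-trend, with age in the model, since a single age had 1 library per genotype and allowed no test. Of the 34 members tested, 1 passed, against 6.03% of the 11597 genes tested. An unadjusted p below 0.05 was found for 8 of the 34, beside 2229 of the 11597. St3gal5 had 5.31, 11.1 and 6.26 CPM in WT at P19, P25 and P30 and 15.04, 20.2 and 15.4 in KO, resting on 7, 11 and 11 UMIs in WT and 21, 53 and 36 in KO. It was higher in KO at each age, with a log2 difference of 1.10 ± 0.285 (adjusted p = 0.0349), which was lost without P25 (0.0919) or P30 (0.0783). Adipor1 was at 548, 501 and 722 CPM in WT and 82.3, 119.75 and 114 in KO.

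Cers4 in rod-like cells was at 569 (529 to 612), 520.2 (476 to 567) and 149 (132 to 168) CPM in WT at P19, P25 and P30, and at 356 (325 to 389), 356 (334 to 379.8) and 146 (131 to 162) in KO. The intervals of the genotypes were apart at P19 and P25 and overlapped at P30. Its log2 difference of -0.42 did not pass (adjusted p = 0.094) and was -0.61 (adjusted p = 0.00238) without P30. Cers4 did not pass without P19 (-0.29, adjusted p = 0.247) or without P25 (-0.35, adjusted p = 0.525). Asah1 was at 29.6, 24.1 and 52.9 CPM in WT and 57.3, 40.4 and 62.3 in KO. KO was higher at each age, with a log2 difference of 0.63 ± 0.179 that did not pass (adjusted p = 0.0562) and passed without P30 (0.82, adjusted p = 0.0217). Asah1 did not pass without P19 (0.47, adjusted p = 0.158) or without P25 (0.58, adjusted p = 0.21). Sptssa was at 102, 80.5 and 232 CPM in WT and 106, 119 and 246 in KO, and Ormdl1 was at 75.05, 59.4 and 123 in WT and 65.2, 57.6 and 100.75 in KO. Of the 31 members with at least 100 UMIs in these cells, 9 were higher in KO at each age, 6 lower and 16 mixed. The same count was not made over all genes, so it is not read as a trait of the members. The median over the members tested was 0.084, beside 0.024 over all genes. With edgeR these medians were 0.013 and 0.0090.

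**Figure D5:**
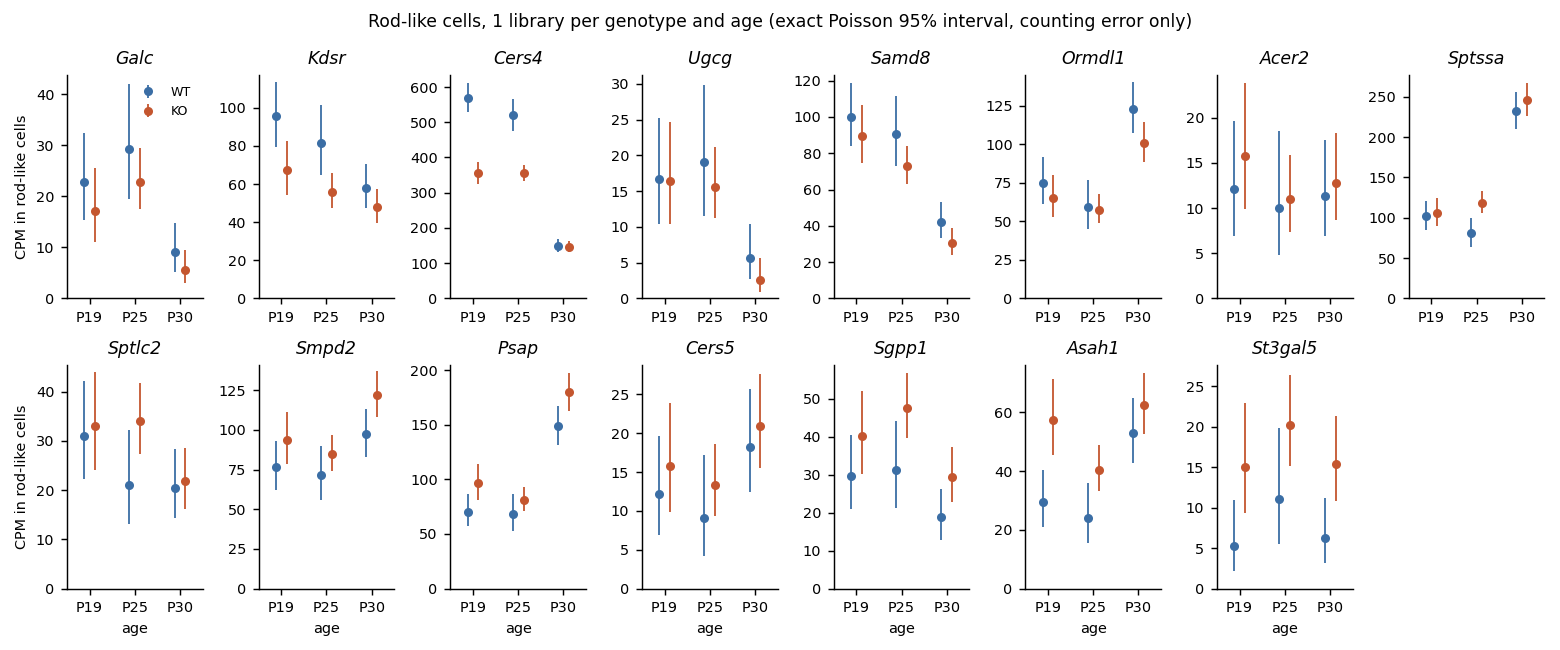
CPM in rod-like cells at P19, P25 and P30 in WT and KO for the 15 members with at least 100 UMIs whose difference had the same direction at each age, with exact Poisson 95% intervals. Cers4 is lower in KO at each age, by little at P30, and St3gal5 is higher at each age.

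Müller glia-like cells (2055) were compared in the same way. Of the 40 members tested, 1 passed, against 1.12% of the 12420 genes tested. An unadjusted p below 0.05 was found for 9 of the 40, beside 1783 of the 12420. S1pr1, the receptor also seen lower in the whole retina, had 295, 336 and 138 CPM in WT at P19, P25 and P30 and 201, 184 and 61.5 in KO. KO was lower at each age, with a log2 difference of -0.85 ± 0.144 (adjusted p = 0.0424), and the adjusted p was 6.81e-04 with edgeR and 0.110 with a prior count of 0.5. S1pr3 was at 179, 178 and 103 CPM in WT and 192, 180.2 and 104.5 in KO, with an adjusted p of 0.883. Sptssb was at 36.6, 36.4 and 43.4 CPM in WT and 20.9, 14.7 and 10.2 in KO, and this lower level did not pass (log2 -1.32, adjusted p = 0.0876). It passed for Sptssb with edgeR (adjusted p = 0.00186), without P19 (0.00863) and without P30 (0.00295), and not without P25 (0.0528) or with a prior count of 0.5 (0.159). Of the 34 members with at least 100 UMIs, 4 were higher in KO at each age, 13 lower and 17 mixed, a count again not made over all genes. The main fit scaled by totals, with no TMM. In that fit genes as a whole were also more often lower, 7162 against 5258 higher. Their median was -0.0785, beside -0.147 over the members tested. With edgeR, which used TMM, 6140 genes were higher and 6280 lower, with a median of -0.0043. The members' median was then 0.048, with 23 higher and 17 lower, so no direction is given for the members as a group.

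Cers4 was followed through the other classes with at least 50 cells in every library. In Müller glia-like cells it was at 137, 138 and 86.8 CPM in WT and 98.5, 78.0 and 59.4 in KO (adjusted p = 0.105). In cone-like cells it was at 344, 297 and 254 in WT and 281, 229 and 222 in KO, and in other bipolar-like cells at 192, 189 and 187 in WT and 158, 180.2 and 136 in KO. In rod bipolar-like cells Cers4 was at 171, 169 and 163 in WT and 135, 148 and 132 in KO. In amacrine-like cells it was at 80.7, 87.6 and 69.3 in WT and 80.0, 82.2 and 59.2 in KO. Its KO value was below the WT value of the same age in each of these classes.

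A second list of 44 sphingolipid genes was counted in the bulk data. In the retina 18 of the 38 tested passed, 12 higher and 6 lower, where 30.9% of all genes passed, 16.2% higher and 14.7% lower. Those with at least a 1.5-fold change included Plpp3 (log2 0.74, adjusted p = 9.04e-06) and B3gnt5 (0.64, adjusted p = 0.00652), which rose, and Plpp2 (-1.43, adjusted p = 3.94e-09), Mfsd2b, an S1P transporter (-0.68, adjusted p = 3.94e-06) and Col4a3bp, which carries ceramide to the Golgi (-0.60, adjusted p = 1.22e-06), which fell. In the RPE, where 6.73% of all genes passed (2.84% higher and 3.89% lower), 5 of 39 passed, 2 higher and 3 lower, with Ctsa (0.66, adjusted p = 0.00748) among those higher, and 3 passed with the replicate block, 2 higher and 1 lower.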

How the data were processed

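Bulk RNA-Seq of retina and RPE and droplet single-cell RNA-Seq of retina were analysed. The authors deposited whole-number read counts per gene for the bulk libraries, and for single cells a natural log table of normalised expression. Per the labels, Cell Ranger 2.1, Seurat 3.2.2 and edgeR 3.20.9 were among the authors' tools. The sources used here do not say whether counting used strand. The deposited single-cell values had been scaled to 10000 and logged in 2 rounds, and undoing both steps gave whole UMIs for 100% of values (tolerance 0.01), against 66.67% after 1 round.

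Bulk counts were tested with edgeR 4.0.16 (R 4.3.3; TMM, filterByExpr, quasi-likelihood, Benjamini-Hochberg over all genes tested). Single-cell sums per class and library with at least 20 UMIs were tested with limma 3.58.1 (limma-trend, prior count 2, no TMM). DESeq2 1.42.0 was an alternative. Each script was tested on simulated data. Clustering used 2000 genes, 30 components, 15 neighbors and Leiden resolution 1.0 (leidenalg 0.10.2), leaving out 85 sphingolipid genes and Adipor1, and gave 51 clusters. A class needed 3 markers, and at least 50 cells in every library to be compared. No doublet caller was run, and an alternative left out the 5% of cells with the most UMIs.

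CPM is scaled within a tissue, and RPKM over all 16 libraries. Genes were named from GENCODE annotation. Members described library by library are the DEGs (adjusted p below 0.05 and at least 1.5-fold), those with a tissue difference of at least 1 on the log2 scale in the interaction test, the ceramidases, Sptlc1, Sptlc2 and Smpd1. The members and lists were chosen with earlier results of these data known. RPE libraries of the same number deviated together (r of 0.48, 0.452, 0.59 and 0.276), and a replicate block was fitted as an alternative. The labels do not say that the numbers mark pairs. Only WT library 3 correlated best with the KO library of its own number (the best KO partners of WT libraries 1, 2 and 4 were 4, 3 and 1).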

Additional observations from a re-analysis of the deposited data

Results flagged for a closer look

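Among 52 groups of 4 libraries, each looked at for 1 library far from the others, 4 held one, and chance gives about 1 in 20. WT RPE library 3 had 209.3 CPM of Cers4, against 168.8 to 174.3 in the others. WT retina library 2 had 38.11 CPM of S1pr3, against 22.8 to 24.83. KO RPE library 4 had 15.45 CPM of Sptssb, against 8.238 to 8.851. KO retina library 2 had 56.51 CPM of Sptlc2, against 53.99 to 54.26.

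The genotype effect differed between RPE and retina, by the interaction test (edgeR), for Sptssb (1.946, adjusted p = 0.0317), Cers4 (0.4143, adjusted p = 0.0292), Cers5 (-0.4204, adjusted p = 0.0316) and Gla (0.4019, adjusted p = 0.0058), all as log2 differences of RPE minus retina.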

How the results depend on the processing

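In the retina, fitting both tissues together gave 2731 genes and 12 members that passed, and without a minimum fold 5990 genes and 23 members counted as DEGs. In the RPE, genes that passed were 2046 with DESeq2, 2863 in the single fit, 2042 with the rod covariate (chosen after seeing the data) and 645 to 2130 with 1 library left out (645 to 834 without a KO RPE library, 2130 without WT RPE library 1), and members were 3, 7, 5 and 0 to 6, and 3 with library totals. RPE DEGs were 1571 in the single fit and 563 to 1677 with 1 library left out. Member DEGs were 1 with library totals, DESeq2, the single fit, the rod covariate or no minimum fold, and 0 to 2 with 1 library left out. Interaction members were 7 with library totals and 1 to 7 with 1 library left out. In rods, 412 genes and 0 members passed without P25, and 2 members without P30. In Müller glia, 923 genes and 5 members passed with edgeR, 35 and 0 with prior count 0.5, and 548, 297 and 893 genes and 4, 3 and 6 members without P19, P25 and P30. The causes were not tested. For the genes given by library, 331 retina values kept their direction and side of the threshold under an alternative, 52 lost their call and 4 gained one, against 177, 2 and 7 in the RPE, 246, 36 and 8 in the interaction and 101, 2 and 2 in rods. With CPM as a mean over cells, 11 class levels moved beyond their interval and 37 did not.

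With the replicate block, 5852 genes and 22 members (3 DEGs, Ormdl1 falling just short of 1.5-fold at log2 -0.5849) passed in the retina, where Degs1 had an adjusted p of 0.0524, 1218 and 1 in the RPE, 1764 and 3 in the interaction and 16068 and 39 between tissues. Retina libraries of the same number correlated at 0.189, 0.0804, 0.0434 and 0.14, and neither tissue was taken as paired in the main tests.

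Directions turned for values near 0: Sptssb in the retina (-0.008348 with the block, -0.1121 to 0.1672 with 1 library left out), Sptlc1 (-0.1757 to 0.0063), Asah2 (-0.1421 to 0.0468), Acer2 (-0.0536 to 0.2328) and S1pr3 (-0.0496 to 0.6368) in the RPE, Acer2 in the interaction (-0.06597 with library totals, -0.0741 to 0.2104) and Sptssb between tissues (-0.8437 to 0.0047).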
